A study of Mus musculus with 32 samples.

Results

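Csf1r, Cd68, Mrc1, Cd163, C1qa, C1qb, C1qc, Ly6c2, Ccr2 and Arg1 are 10 mouse genes used to mark macrophages and monocytes. They were taken by symbol from the first column of the 4 deposited expression tables, and all 10 were found in each. The tables listed 22609 genes each for cultured cells and Rag1-/- hosts and 25277 each for C57BL/6 hosts at day 4 and day 6. The study measured mRNA by stranded RNA sequencing in E0771, a mouse mammary carcinoma line, either DDR1 WT or DDR1 KO. DDR1 is a receptor tyrosine kinase that binds collagen. The groups were cultured WT cells (n = 3), cultured KO cells (n = 2), WT tumours (n = 5) and KO tumours (n = 5) in Rag1-/- mice, WT tumours (n = 4) and KO tumours (n = 5) in C57BL/6 mice at day 4, and C57BL/6 tumours at day 6 given IgG (n = 4) or an antibody to the extracellular domain of human DDR1 (n = 4). The series text describes tumours moved from Rag1-/- to C57BL/6 mice, and the day 4 titles do not say from when the days were counted. Rag1-/- mice lack mature T and B cells and still have macrophages, monocytes and natural killer cells, and KO groups carry the deletion in the tumour cells, not in the host. The labels give no tumour cell genotype at day 6, no age of the mice, and no word on whether libraries of a group came from separate mice or whether KO cells were 1 clone. The cultured libraries are separately named preparations, E0771-P, EV and Ctrl for WT and 3-6 and 3-7 for KO, and are treated here as replicates. The p-values here therefore measure only the spread between these libraries.

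In mouse tumours, CCR2 draws inflammatory monocytes from the blood along gradients of the chemokines CCL2, CCL7 and CCL12, and these monocytes carry the surface protein Ly6C. In tissue they lose Ly6C and mature under CSF1 and IL34, the ligands of the receptor CSF1R, into macrophages that make lysosomal CD68, the complement starter C1q, the mannose receptor MRC1 and, in some tissues, the haemoglobin scavenger CD163. ARG1 breaks down arginine and is made by macrophages under interleukin 4, hypoxia or lactate, among other cells.

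Promoters, from 250 bases before to 50 after a transcript start, are shown for the genes whose values below move together or turn on each other. They come from the RefSeq table on GRCm38.p6, which matched 7 of the 10 genes. C1qa, Csf1r and Arg1 were not matched. Capitals mark GAGGAA on either strand (read as TTCCTC on the other), the purine box bound by PU.1, a transcription factor that macrophages and monocytes need. The first pair below belongs to C1qb and C1qc, which lie with C1qa on chromosome 4. The next pair belongs to Ly6c2 and its close relative Ly6c1 on chromosome 15, and the last to Mrc1 on chromosome 2.
C1qb, chr4:136886151-136886450, minus strand: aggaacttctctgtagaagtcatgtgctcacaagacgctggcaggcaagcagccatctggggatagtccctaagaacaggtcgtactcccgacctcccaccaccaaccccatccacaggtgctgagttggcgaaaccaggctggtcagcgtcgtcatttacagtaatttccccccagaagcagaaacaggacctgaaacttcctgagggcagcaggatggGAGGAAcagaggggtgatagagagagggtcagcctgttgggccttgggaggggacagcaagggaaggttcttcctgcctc
C1qc, chr4:136892865-136893164, minus strand: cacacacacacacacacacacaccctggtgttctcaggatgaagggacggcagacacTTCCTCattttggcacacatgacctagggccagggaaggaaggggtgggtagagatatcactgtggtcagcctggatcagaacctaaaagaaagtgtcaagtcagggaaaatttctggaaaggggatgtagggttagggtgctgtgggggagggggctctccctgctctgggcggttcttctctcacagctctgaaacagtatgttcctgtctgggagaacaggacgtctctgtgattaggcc
Ly6c2, chr15:75111922-75112221, minus strand: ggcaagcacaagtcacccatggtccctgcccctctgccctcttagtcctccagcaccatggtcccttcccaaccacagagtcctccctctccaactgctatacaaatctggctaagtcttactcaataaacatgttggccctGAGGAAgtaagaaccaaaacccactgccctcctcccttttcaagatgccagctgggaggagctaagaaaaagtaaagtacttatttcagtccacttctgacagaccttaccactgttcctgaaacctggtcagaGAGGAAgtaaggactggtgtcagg
Ly6c1, chr15:75048788-75049087, minus strand: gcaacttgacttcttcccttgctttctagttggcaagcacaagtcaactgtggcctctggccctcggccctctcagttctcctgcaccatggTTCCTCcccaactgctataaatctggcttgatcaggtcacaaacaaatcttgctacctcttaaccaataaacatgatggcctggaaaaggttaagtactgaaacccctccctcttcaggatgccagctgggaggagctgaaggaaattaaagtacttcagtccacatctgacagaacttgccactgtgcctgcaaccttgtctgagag
Mrc1, chr2:14229164-14229463, plus strand: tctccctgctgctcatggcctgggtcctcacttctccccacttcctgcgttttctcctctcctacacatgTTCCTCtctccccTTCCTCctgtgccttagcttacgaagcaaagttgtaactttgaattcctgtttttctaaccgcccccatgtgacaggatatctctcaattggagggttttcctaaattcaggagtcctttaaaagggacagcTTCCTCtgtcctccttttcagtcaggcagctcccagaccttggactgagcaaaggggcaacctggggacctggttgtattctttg

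The purine box occurred once in the C1qb window, with its first base at -30 from the start, and once in the C1qc window, at -193. The Mrc1 window held 3 boxes, at -180, -167 and -35, and that of Ly6c2 held 2, at -108 and 27. The Ly6c1 window held 1, at -158. Of the matched genes not shown, Cd68 held 2 boxes, and Cd163 and Ccr2 held 0. For Ly6c2 and Ly6c1 the source lists 2 promoters each, and only the first was searched. Of all 32851 promoters of this length, 28.3% hold at least 1 box, so its presence is common. An interferon-stimulated element, searched as GAAA, any 2 bases and GAAA again, was in 3.44% of all promoters. It was found on neither strand of the 5 windows, so no marked box overlapped it. The Ly6c2 and Ly6c1 windows matched at 78.2% of 266 aligned bases. Of the 817 distinct stretches of 50 bases in Ly6c2 transcripts, 252 (30.8%) also occur in Ly6c1 transcripts, so the split of reads between this pair is uncertain. No such stretch is shared among the 3 C1q genes.

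Libraries held 29270919 to 37425032 reads (culture), 18967300 to 25516204 (Rag1-/- hosts), 20148955 to 28600639 (day 4) and 20220028 to 39732635 (day 6). Levels are given as a gene's reads per 1000000 reads of the library (RPM). Ddr1 checked the labels: it lay at 171 to 213 RPM in cultured WT libraries and 19.0 to 26.7 in KO, and tumours were split as clearly. WT tumours had 174 to 189 RPM and KO tumours 33.3 to 42.3 in Rag1-/- hosts, against 132 to 175 and 27.9 to 49.7 on day 4. At day 6 it lay at 15.9 to 28.5 RPM over both groups, far under the WT libraries of the other tables. Libraries of a group always differed by more than sampling noise. Ptprc, the pan-leukocyte gene CD45, had 4 reads in all in culture and 29.3 to 365 RPM in tumours. In bulk tumours, fewer cells of a type and less RNA per cell cannot be told apart.

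Cultured E0771 cells made almost none of these genes except Cd68. Cd68 lay at 41.4, 17.6 and 13.2 RPM in WT cells and at 24.7 and 48.3 in KO cells. The groups overlapped, with the first WT and second KO libraries high. C1qc and Ccr2 had no read in any of the 5 libraries, and Mrc1, Cd163, C1qa, C1qb and Arg1 had 0 to 3 reads in a group. With 0 reads in a library, the limit of 3 reads corresponds to 0.0802 to 0.102 RPM, for counting error only. Csf1r had 111 reads in WT and 62 in KO cells, at 0.428 to 2.05 RPM. It overlaps Hmgxb3 on the opposite strand, and whether counting used strand is not given in the sources used here.

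Only Csf1r and Cd68 reached the mean of 10 needed for the culture test, and neither was called by limma (0 of 2, beside 0.327% of 11911 genes) at an adjusted p under 0.05. At an unadjusted p under 0.05, limma, edgeR and DESeq2 each counted 0 of the 2 (18.8% of all genes in limma), and edgeR and DESeq2 called neither (0.21% and 8.59% of all genes). Cd68 was 0.73 higher in KO on the log2(normalized count + 1) scale used for all changes below (SE 0.50, adjusted p = 0.487). Its limma adjusted p was 0.0473 without the first WT library, titled E0771-P, and the authors' deposited table gives it an adjusted p of 0.0113. Csf1r was at -0.05 (SE 0.65). Ly6c2 had 7 reads in WT and 0 in KO cells, a difference too small to give a fold. Its relative Ly6c1 lay at 2.60, 6.52 and 8.92 RPM in WT and 0.917 and 1.21 in KO cells, which do not overlap, as was so for 36.2% of genes tested (log2 change -2.28, SE 0.51, limma adjusted p = 0.0852). Transcripts for ligands of the receptors were abundant in these cells: Csf1 averaged 430 ± 94.4 RPM (SD, n = 3) and Ccl2 428 ± 121 (SD, n = 3) in WT cells.

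All 10 genes were present in every tumour group, and their mean levels differed between hosts. Tables were normalized separately by the authors and differ in host, day and treatment, so levels across them are described without a test. The C1q and Csf1r means were higher in the order Rag1-/-, day 4, day 6. Those of Cd68, Mrc1 and Ccr2 were lowest in Rag1-/- hosts. Arg1 and Cd163 had their highest means at day 4, and Ly6c2 had its lowest tumour mean there, in WT tumours.

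**Figure D1:**
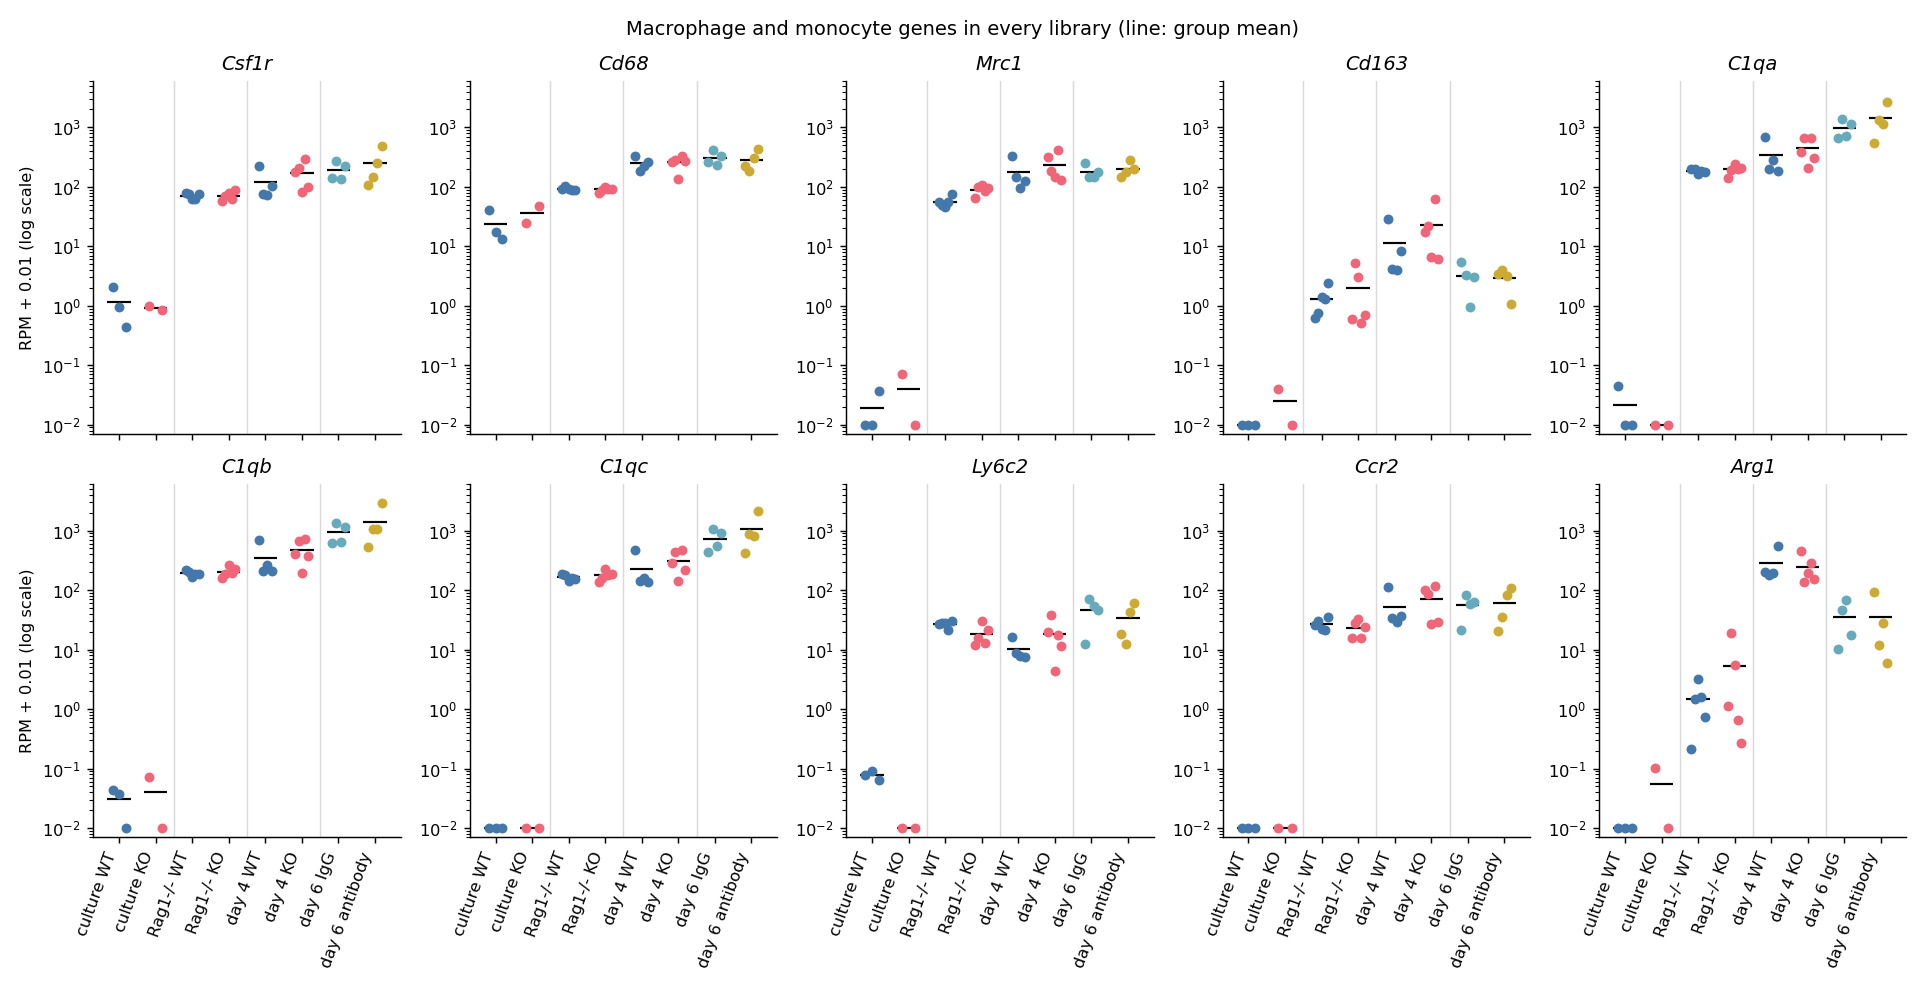
Level of each of the 10 genes in every library (points, RPM plus 0.01 on a log axis), by group, with group means as lines and grey lines between tables. Arg1 lies at 139 to 541 RPM in all 9 day 4 libraries and at 0.203 to 92.7 in the other tumour libraries, while Cd68 is the one gene well above 0 in culture.

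C1qa, C1qb and C1qc encode the 3 chains of C1q, which starts the classical complement pathway and is made by resident-type macrophages. C1qa averaged 186 ± 15.1 RPM (SD, n = 5) in WT and 197 ± 35.6 (n = 5) in KO tumours of Rag1-/- hosts. At day 4 it averaged 340 ± 242 (SD, n = 4) in WT and 444 ± 207 (n = 5) in KO. At day 6 the means were 970 ± 343 (SD, n = 4) with IgG and 1416 ± 885 (n = 4) with antibody. The means formed a series, yet each of these groups overlapped the group next below it. Across the series, every day 6 library (541 to 2643 RPM) lay above every Rag1-/- library (143 to 242). In libraries the chains kept nearly fixed ratios: C1qa over C1qb lay between 0.822 and 1.26 in all 27 tumour libraries. C1qc over C1qb was 0.820 to 0.919 for Rag1-/- hosts, with lower values of 0.586 to 0.732 on day 4 and 0.701 to 0.837 on day 6.

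Per length, as RPM per kilobase of exon (RPKM), C1qa and C1qb were the highest of the 10 in WT tumours of Rag1-/- hosts, with levels of 178 and 176 RPKM. C1qc followed at 84.9 RPKM and Cd68 at 73.6. Csf1r (12.2 RPKM), Ly6c2 (9.74), Mrc1 (8.84) and Ccr2 (3.96) formed a middle range on the same scale. Arg1 and Cd163 were at 0.647 and 0.235 RPKM. At day 4 the Arg1 level was 126 RPKM in WT tumours, next to C1qc at 119, with C1qb at 316 and Csf1r at 20.7. These orders depend on the length, which joined all annotated exons of a gene. It was 2740 bases for Ly6c2 and 1931 for C1qc. Their protein-coding transcripts hold only 817 and 1154 distinct stretches of 50 bases, so RPKM may be too low for both.

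Csf1r, the receptor that macrophages need to survive, averaged 70.7 and 70.9 RPM in WT and KO tumours of Rag1-/- hosts. Its means were 120 and 170 RPM on day 4, then 193 with IgG and 247 with antibody, and all neighbouring tumour groups overlapped. Every day 6 library (108 to 484 RPM) still lay above every Rag1-/- library (57.4 to 87.4). Cd68 averaged 92.5 and 90.1 RPM in Rag1-/- hosts, and every day 4 and day 6 library, at 135 to 428 RPM, lay above the highest Rag1-/- library at 102. Since cultured tumour cells had up to 48.3 RPM of Cd68, its tumour level cannot be assigned to macrophages alone. Mrc1, the mannose receptor CD206, averaged 56.3 (WT) and 89.8 RPM (KO) in Rag1-/- hosts. On day 4 the means were 174 and 237 RPM, and on day 6 they were 180 (IgG) and 201 (antibody). Neighbouring tumour groups overlapped in Mrc1, while every day 6 library (143.5 to 281 RPM) lay above every Rag1-/- library (45.2 to 106).

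Cd163, the haemoglobin-haptoglobin receptor of some resident macrophages, stayed the weakest of the 10 outside day 4. Its mean was 1.28 RPM in WT and 1.99 in KO tumours of Rag1-/- hosts. The day 4 means were 11.2 and 23.0 RPM, and those of day 6 were 3.19 and 2.89. The spread at day 4 was wide, with 63.1 RPM in the fourth KO library and 28.6 in the first WT library against 3.97 to 22.1 in the other 7. Arg1 averaged 1.44 and 5.38 RPM in WT and KO tumours of Rag1-/- hosts. Its day 4 means were 280 and 244 RPM, and with IgG and antibody it averaged 35.6 and 34.6. Its day 4 groups did not overlap any other group.

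Day 4 differed from the other tables in further cell markers, whose part in the Arg1 level was not tested. Summed neutrophil markers (5 of 5 listed: S100a8, S100a9, Csf3r, Cxcr2 and Retnlg) were 89.2 to 599 RPM at day 4, against 13.2 to 17.2 for Rag1-/- hosts and 13.6 to 56.2 for day 6. Nos2, the other main arginine user of activated macrophages, averaged 593 and 323 RPM in WT and KO tumours of day 4, against 3.99 and 4.64 for Rag1-/- hosts and 28.8 and 18.6 for day 6. Cultured WT cells had 500 RPM of Nos2 on average (n = 3) but no Arg1 read.

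Of the monocyte genes, Ccr2 averaged 26.8 (WT) and 23.3 RPM (KO) in Rag1-/- hosts. It averaged 52.3 and 71.6 RPM on day 4, then 56.5 with IgG and 61.5 with antibody on day 6. Ly6c2 took another course, with 26.7 and 18.4 RPM in WT and KO tumours of Rag1-/- hosts. Its means were 10.1 and 18.0 RPM on day 4, then 45.8 with IgG and 33.8 with antibody. From Rag1-/- hosts to day 4, the WT mean of Ccr2 was 1.95 times as high and the KO mean 3.07 times. For Ly6c2 the WT mean was 0.380 times as high, while the KO mean was 0.977 times and the KO ranges overlapped. Ly6c2 in day 4 WT tumours (7.51 to 16.4 RPM) lay wholly under WT tumours of Rag1-/- hosts (21.1 to 30.4).

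In Rag1-/- hosts, loss of DDR1 went with more Mrc1 and less Ly6c2, while 8 of the 10 genes were not called. Mrc1 rose and Ly6c2 fell in limma at an adjusted p under 0.05 (2 of 10), beside 22.7% of the 12795 genes tested, of which 11.3% rose and 11.4% fell. Both also had an unadjusted p under 0.05 (36.1% of genes), while edgeR and DESeq2 called Mrc1 alone (22.7% and 25.3% of genes). With so many genes called, the count of members is no higher than that of genes in general. None of the 10 had groups that did not overlap, against 15.0% of genes tested.

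Mrc1 lay at 56.3, 49.3, 45.2, 55.7 and 75.1 RPM in WT tumours. KO tumours had 65.3, 99.1, 106, 84.7 and 94.2 RPM. The groups overlapped because the first KO library fell below the fifth WT library, and the other 4 KO libraries lay above all WT libraries. The log2 change was 0.64 (SE 0.13, 95% interval 0.36 to 0.92, limma adjusted p = 0.00399), and it was called under all 20 alternatives. The authors' deposited table gives 0.00292. MRC1 is also made by lymphatic endothelium: summed endothelial markers (3 of 3: Pecam1, Cdh5 and Kdr) were 127 to 158 RPM in WT and 138 to 175 in KO, and the lymphatic gene Lyve1 averaged 6.02 and 5.09. Their part in the rise was not tested.

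Ly6c2 lay at 26.4, 27.7, 27.8, 21.1 and 30.4 RPM in WT tumours. KO tumours had 12.0, 15.7, 30.3, 12.9 and 21.1 RPM. The third KO library stood with the highest WT libraries, and the other 4 were at or under the lowest WT library. The log2 change was -0.65 (SE 0.20, 95% interval -1.07 to -0.22, limma adjusted p = 0.0315). This call was borderline: it was made under 10 of 20 alternatives, and was lost in edgeR (adjusted p = 0.0568) and DESeq2 (0.0826), without the limma trend (0.0731) and without any 1 of WT libraries 1, 2, 3 and 5 or KO libraries 1, 2 and 4 (0.0586 to 0.0871). The authors' deposited table gives an adjusted p of 0.0836.

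Ly6c1, which shares sequence with Ly6c2 and is also made by endothelium, lay at 53.4 to 73.1 RPM in WT and 29.7 to 39.5 in KO tumours, with no overlap (15.0% of genes tested). It fell by 0.93 (log2, SE 0.08, limma adjusted p = 1.38e-05). Cultured WT cells also had more Ly6c1 than KO cells, as given above, and the part of Ly6c1 reads in the Ly6c2 values was not tested.

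**Figure D2:**
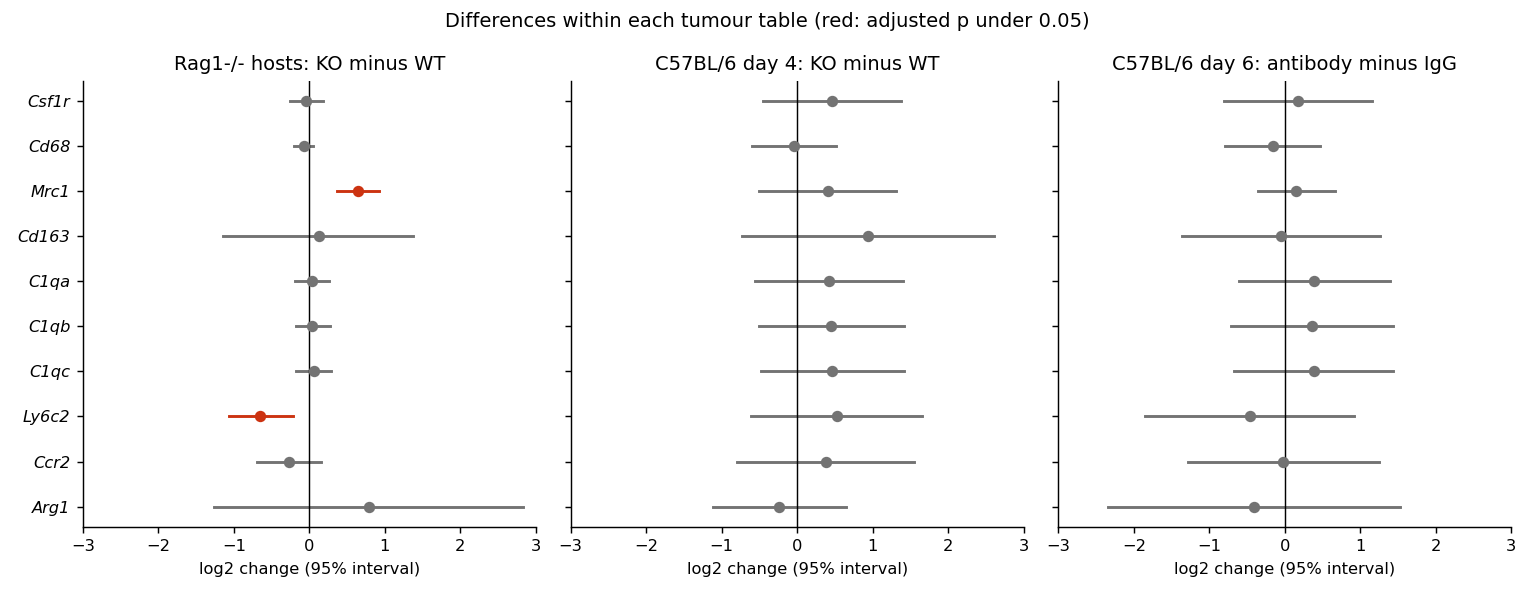
Estimated log2 change of each gene within the 3 tumour tables (points) with 95% intervals (lines) from limma; red marks an adjusted p under 0.05. Mrc1 at 0.64 and Ly6c2 at -0.65 in Rag1-/- hosts are the only red points, and the intervals at day 4 and day 6 are much wider than those of C1qa, C1qb, C1qc, Csf1r and Cd68 in Rag1-/- hosts.

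None of the other 8 genes was called in this table. The log2 changes of C1qa, C1qb, C1qc, Csf1r and Cd68 were 0.04, 0.04, 0.06, -0.04 and -0.07, and their 95% intervals together ran from -0.26 to 0.29. The leukocyte gene Ptprc was at 0.03 (95% interval -0.12 to 0.18). The intervals of the remaining 3 were wider. Ccr2 was at -0.27 (95% interval -0.69 to 0.15) and Cd163 at 0.12 (95% interval -1.14 to 1.37). Arg1 was at 0.79 (95% interval -1.26 to 2.83), a value set by the second KO library at 19.3 RPM: without it the estimate was -0.04.

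Ratios within a library, which do not depend on depth or scaling, showed how the macrophage genes shifted against each other. Mrc1 over Csf1r was 0.724, 0.662, 0.733, 0.878 and 0.985 in WT tumours of Rag1-/- hosts. In KO tumours it was 1.14, 1.42, 1.34, 1.38 and 1.08. Every KO library lay above every WT library, which 2.99% of genes did or did in reverse when divided by Csf1r. Mrc1 over Ly6c2 was 1.63 to 2.64 in WT and 3.50 to 6.55 in KO tumours, again without overlap (5.99% of genes divided by Ly6c2). Ly6c2 over Csf1r, at 0.333 to 0.450 and 0.209 to 0.384, and Ccr2 over Csf1r, at 0.329 to 0.462 and 0.258 to 0.421, overlapped. These ratios were set up with the changes known and carry no test.

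**Figure D3:**
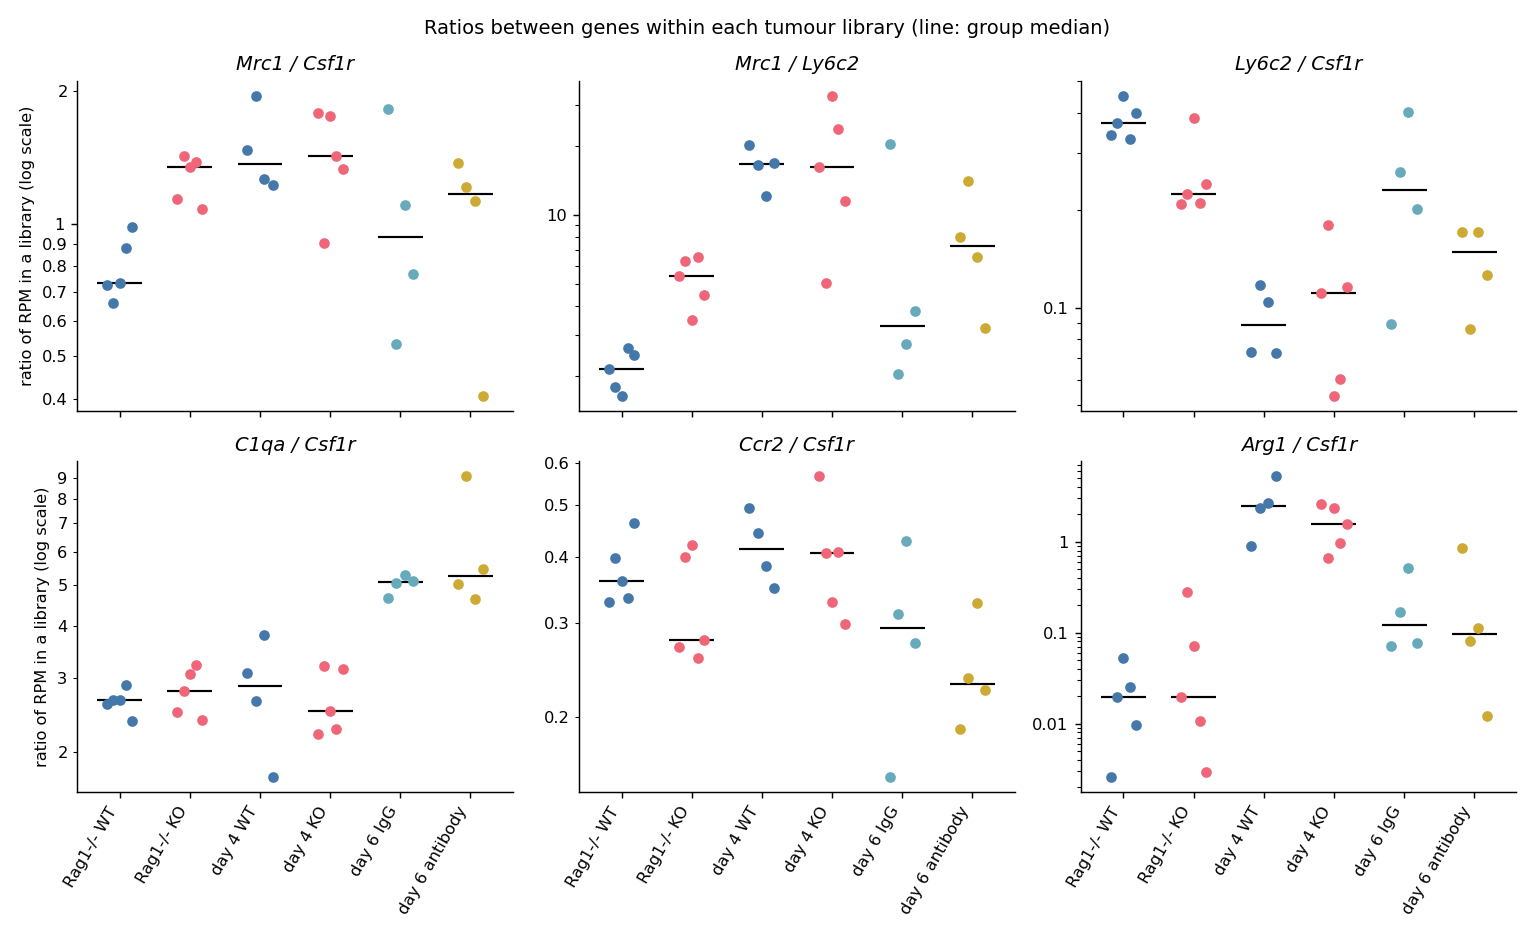
Ratios of RPM between 2 genes within each tumour library (points, log axes) with group medians as lines. Mrc1 over Csf1r separates KO (1.08 to 1.42) from WT (0.662 to 0.985) in Rag1-/- hosts but not at day 4, and the medians of Arg1 over Csf1r are highest in the day 4 groups.

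Other genes of the pathways came from 8 lists of 109 genes. In Rag1-/- hosts 9 rose and 7 fell of 97 tested (16.5%, beside 22.7% of all genes), and their median log2 change was -0.03. Of 23 other macrophage markers tested, 11 were above 0 and the median log2 change was -0.00, as over all genes. Of these 23, 3 rose, beside 11.3% of all genes, and none fell: the scavenger receptor Msr1 (0.48, SE 0.09), osteopontin Spp1 (0.57, SE 0.13) and the scavenger receptor Stab1 (0.36, SE 0.10), with limma adjusted p of 0.00190, 0.00586 and 0.0221. Of 16 other monocyte markers, Vcan rose (0.39, SE 0.09) and Ly6c1 fell. Both Vcan and Spp1 are also made by tumour cells and fibroblasts.

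Ligands and receptors of the same lists moved in both directions. Ccl2 and Ccl7, ligands of CCR2, fell by 0.40 (SE 0.13) and by 0.47 (SE 0.14), with limma adjusted p of 0.0356 and 0.0275, and Ccl12 was at 0.32 (SE 0.23). Ccl2 averaged 201 ± 27.6 RPM (SD, n = 5) in WT and 157 ± 37.1 (n = 5) in KO tumours. The CSF1R ligands Csf1 (-0.24, SE 0.09) and Il34 (0.17, SE 0.09) were not called. In the list of CSF1 receptor ligands and growth factors, Irf8, a factor for monocyte and dendritic cell development, rose by 0.49 (SE 0.07, limma adjusted p = 0.000487) and the GM-CSF receptor chain Csf2ra fell by 0.47 (SE 0.15). Irf8 averaged 30.8 RPM in WT and 44.4 in KO tumours. Cultured cells also had Irf8, at 8.12 RPM in WT and 18.5 in KO (log2 change 1.46, SE 0.65, limma adjusted p = 0.290). The part of tumour cells in its rise was not tested. The chemokine receptor Ccr1 rose by 0.37 (SE 0.11).

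The counts for the next 4 lists stand beside 11.3% of all genes that rose and 11.4% that fell, and lists this small carry no test. Among partners of C1q, 2 of 12 fell: the C1q-binding protease C1ra (-0.32, SE 0.11, limma adjusted p = 0.0499) and the C1q-binding chaperone Calr (-0.17, SE 0.05). Of 8 genes for arginine handling, Asl rose (0.59, SE 0.09), and it encodes an enzyme that makes arginine. Asl was also 0.62 higher in cultured KO cells (SE 0.10, limma adjusted p = 0.0564). Of 11 alternative activation genes, the interleukin 4 receptor Il4ra rose (0.31, SE 0.05) and the lectin Mgl2 fell (-1.31, SE 0.41). Of 9 inflammatory activation genes, Cd40 rose (0.29, SE 0.09). Cd40 averaged 64.4 RPM in cultured WT and 88.7 in cultured KO cells (log2 change 0.51, SE 0.22, limma adjusted p = 0.277). In these tumours it averaged 39.9 and 50.2 RPM. C1ra averaged 41.3 and 26.9 RPM in cultured WT and KO cells (log2 change -0.59, SE 0.12, limma adjusted p = 0.0757). In these tumours C1ra averaged 26.9 and 22.3 RPM. The part of tumour cells in these changes was not tested.

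**Figure D4:**
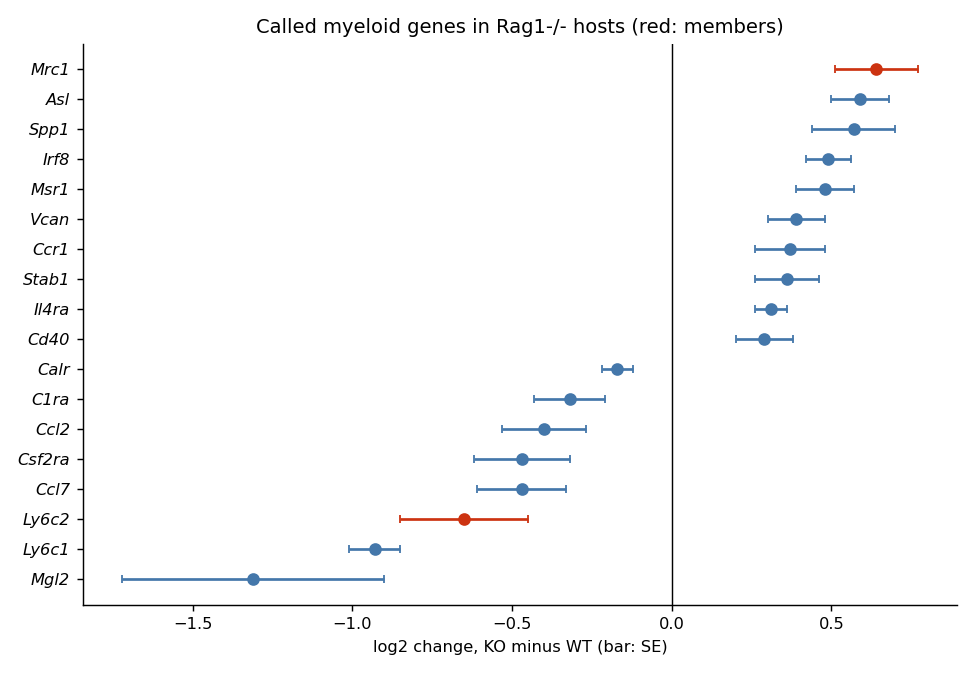
Log2 changes (points, KO minus WT) with standard errors (bars) in Rag1-/- hosts for Mrc1 and Ly6c2 (red) and the 16 pathway genes called by limma (blue). Changes run from -1.31 for Mgl2 to 0.64 for Mrc1.

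At day 4 in C57BL/6 hosts, none of the 10 genes was called, and most leaned higher in KO tumours by less than their spread. In limma 0 of 10 passed, beside 0.0354% of 14105 genes. At an unadjusted p under 0.05 the count was also 0 of 10 (15.0% of genes), and edgeR and DESeq2 called 0 (0.0284% and 4.57% of genes). No gene of the 10 had groups that did not overlap (5.76% of genes tested). The median log2 change was 0.43, with 8 of 10 above 0, beside a median of 0.00 and 50.3% above 0 over all genes.

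The libraries fell into high and low ones in both genotypes. C1qb lay at 689, 209, 267 and 213 RPM in WT tumours. It lay at 411, 669, 195, 715 and 378 RPM in KO tumours. WT library 1 and KO libraries 2 and 4 were highest, and the third KO library was lowest. The log2 change of C1qb was 0.45 (SE 0.43, 95% interval -0.51 to 1.41, limma adjusted p = 0.655), those of C1qa, C1qc, Csf1r, Mrc1 and Ccr2 were 0.38 to 0.46, and that of Cd163 was 0.94 (SE 0.75).

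Mrc1 and Ly6c2, called in Rag1-/- hosts, also varied by library at day 4. Mrc1 lay at 331, 146, 93.7 and 127 RPM in WT and at 314, 188, 144, 409 and 130 in KO tumours. Ly6c2 lay at 16.4, 8.86, 7.74 and 7.51 RPM in WT and at 19.5, 37.3, 4.38, 17.3 and 11.4 in KO tumours. Both overlapped widely, with log2 changes of 0.41 (SE 0.41) and 0.53 (SE 0.51). Mrc1 over Csf1r was 1.22 to 1.95 in WT and 0.903 to 1.79 in KO tumours. Arg1 was at -0.24 (SE 0.40), with 541 RPM in the fourth WT library and 454 in the first KO library, the highest of their groups.

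Other cell markers moved with these libraries. Summed fibroblast markers (5 of 5) were 6777, 2469, 1852 and 2508 RPM in WT tumours and 8903, 6547, 2699, 9074 and 2494 in KO tumours. WT library 1 and KO libraries 1, 2 and 4 were high, much as for C1qb. The fourth WT and first KO libraries, highest in Arg1, were also highest in summed neutrophil markers (599 and 357 RPM). In the third KO library the ribosomal RNA gene Rn45s took 4.95% of reads, against 0.273% to 1.30% in the other 8. Summed keratinocyte markers (4 of 4) were 0.688 to 1.32 RPM in WT and 54.4, 27.8, 589, 25.0 and 12.3 in KO tumours, so that every KO library lay above every WT library. Summed adipocyte markers (3 of 3) were 73.7, 0.731, 6.45 and 2.82 RPM in WT and 54.1, 772, 36.1, 532 and 4.34 in KO tumours, highest in KO libraries 2 and 4, which were also high in C1qb. The part of these in the values was not tested.

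The lists gave no call at day 4 (0 of 105 in limma, 10 at an unadjusted p under 0.05). Of 26 other macrophage markers 23 were above 0, beside 50.3% of all genes, with a median log2 change of 0.30. Also above 0 were 5 of 5 dendritic cell, 3 of 3 endothelial and 4 of 5 fibroblast markers. Neutrophil (0 of 5) and muscle (1 of 4) markers were mostly not. Genes of a library are not independent, so these counts carry no test. Smallest in p were Il34, at 104 ± 16.7 RPM (SD, n = 4) in WT and 65.1 ± 8.68 (n = 5) in KO tumours without overlap (log2 change -0.74, SE 0.15, limma adjusted p = 0.109), and Il23a, a cytokine subunit (-1.14, SE 0.21, adjusted p = 0.0987). Groups without overlap were seen for 5.76% of genes tested. Nos2 was at -1.0 (SE 0.28, limma adjusted p = 0.181).

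The difference of the knockout effect between the Rag1-/- and day 4 tables was tested for each gene from the limma estimates. Host cannot be told apart here from the other differences between these tables. None of the 10 passed, beside 4.68% of 11247 genes. Ly6c2 came closest, at -0.65 in Rag1-/- hosts and 0.53 at day 4, a difference of 1.17 (SE 0.55, unadjusted p = 0.0422, adjusted p = 0.229 from the limma estimates). Without the third day 4 KO library, which had the high share of Rn45s and the lowest Ly6c2, the difference was 1.59 with a limma-based adjusted p of 0.0236. This was the only call among 26 alternatives, which gave differences of 0.84 to 1.59 and limma-based adjusted p of 0.0236 to 0.444. For Mrc1 the difference was -0.23 (SE 0.43), and the call in Rag1-/- hosts alone does not show that the hosts differ.

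At day 6, antibody and IgG tumours held the highest C1q levels and were not told apart in any of the 10 genes. In limma 0 of 10 passed (0.0% of 14155 genes). At an unadjusted p under 0.05 limma also counted 0 of 10 (8.6% of genes), and edgeR and DESeq2 called 0 of the 10 (0.0% and 1.06% of genes). No member had groups that did not overlap (3.9% of genes tested). The median log2 change over the 10 was 0.07.

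C1qa lay at 652, 1358, 712 and 1158 RPM with IgG. With antibody it lay at 541, 1325, 1156 and 2643 RPM. The groups overlapped, and the fourth antibody library was highest for C1qa, C1qb, C1qc, Csf1r, Cd68 and Ccr2. The log2 changes of the C1q genes were 0.36 to 0.39, with 95% intervals from -0.71 to 1.44 together. Without that library C1qa was at 0.02 and C1qb at -0.09.

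For Ly6c2 the IgG libraries gave 12.5, 70.6, 54.4 and 45.6 RPM and the antibody libraries 18.4, 12.6, 42.9 and 61.3 (log2 change -0.46, SE 0.62). Mrc1 was at 0.15 (SE 0.22, 95% interval -0.35 to 0.66) and Arg1 at -0.41 (SE 0.86), with 92.7 RPM in the first antibody library and 5.84 in the fourth. The first IgG library was lowest of its group in Ly6c2, Ccr2 and Arg1 and highest in Mrc1 and Cd163.

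Summed T cell markers (5 of 5) at day 6 were 13.5, 119, 103 and 86.3 RPM with IgG and 16.6, 41.2, 70.2 and 290 with antibody. Ccr2 had its lowest and highest values in the same libraries of each group, with 21.6, 84.1, 57.8 and 62.5 RPM for IgG and 20.4, 34.6, 81.9 and 109 for antibody. T cell markers were 4.88 to 8.69 RPM for Rag1-/- hosts and 1.16 to 7.55 on day 4. Summed muscle markers (4 of 4) were 81.6 to 3934 RPM with IgG and 2.42 to 129 with antibody, and adipocyte markers (3 of 3) 0.198 to 6.18 and 0.503 to 87.9. Their part in the values was not tested.

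Of the 106 list genes tested at day 6, 0 were called by limma and 6 had an unadjusted p under 0.05. Csf1, the main CSF1R ligand, averaged 470 ± 71.5 RPM (SD, n = 4) with IgG and 322 ± 77.0 (n = 4) with antibody (log2 change -0.57, SE 0.18, limma adjusted p = 0.517). The IgG range began at 401 RPM and the antibody range ended at 394, and 3.9% of all genes tested had groups without overlap. Ccl2 was at 0.02 (SE 0.11). Haptoglobin, Hp, which CD163 takes up when bound to haemoglobin, averaged 3.35 RPM with IgG and 58.5 with antibody (log2 change 3.48, SE 0.82, limma adjusted p = 0.517). Its groups did not overlap either. Hp is also made by fat cells, whose marker sums stand above, and their part in its difference was not tested.

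Within groups, the 5 genes most alike differed between C1qa, Mrc1, Ly6c2, Ccr2 and Arg1, and longer lists were not compared. The measure was Pearson's r of log2(RPM + 1) deviations from the group mean over 27 tumour libraries, across 9512 genes, as a description with no p, since all values of a library share its depth and cell mixture. C1qa followed C1qc (r = 0.987) and C1qb (0.983), then Ly86 (0.975), Itm2b (0.958) and Aif1 (0.956). Ly86 and Aif1 are myeloid genes, while Itm2b is made by most cells and averaged 297 RPM in cultured WT cells. Ccr2 followed Myo1g (0.956), Dok2 (0.954), Rasgrp4 (0.954), Tbxas1 (0.952) and Ciita (0.949). Rasgrp4 averaged 18.0 RPM in cultured WT and 7.57 in cultured KO cells, above its 4.30 and 3.61 in tumours of Rag1-/- hosts, while the other 4 averaged at most 0.601 in culture. The likeness of Mrc1 was weaker, led by Sh3bgrl (0.880) and Nptn (0.877). Within Rag1-/- hosts alone, r was 0.773 for Mrc1 with Sh3bgrl, 0.442 for Mrc1 with Nptn and 0.672 for C1qa with Itm2b.

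Genes among the first 5 for Ly6c2 were Irgm1 (r = 0.923), Gbp2 (0.922), Igtp (0.911) and Uba7 (0.905), all known as interferon-induced genes. The r with Irgm1 was 0.873 within Rag1-/- hosts, 0.932 within day 4 and 0.938 within day 6. In Rag1-/- hosts, where Ly6c2 fell, Irgm1 averaged 110 RPM in WT and 112 in KO tumours (log2 change -0.03, SE 0.13, limma adjusted p = 0.901), and Gbp2 was at 0.11 (SE 0.19). Igtp and Uba7 leaned lower there, at -0.19 (SE 0.17) and -0.24 (SE 0.14), and were not called (limma adjusted p of 0.447 and 0.221). At day 4 Irgm1 averaged 41.4 RPM in WT and 61.7 in KO tumours (log2 change 0.46, SE 0.27, limma adjusted p = 0.451). At day 6 it averaged 344 RPM with IgG and 195 with antibody (log2 change -0.83, SE 0.32, limma adjusted p = 0.517). Arg1 was least like any other gene, with Pdpn (0.701) and Saa3 (0.693) first.

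**Figure D5:**
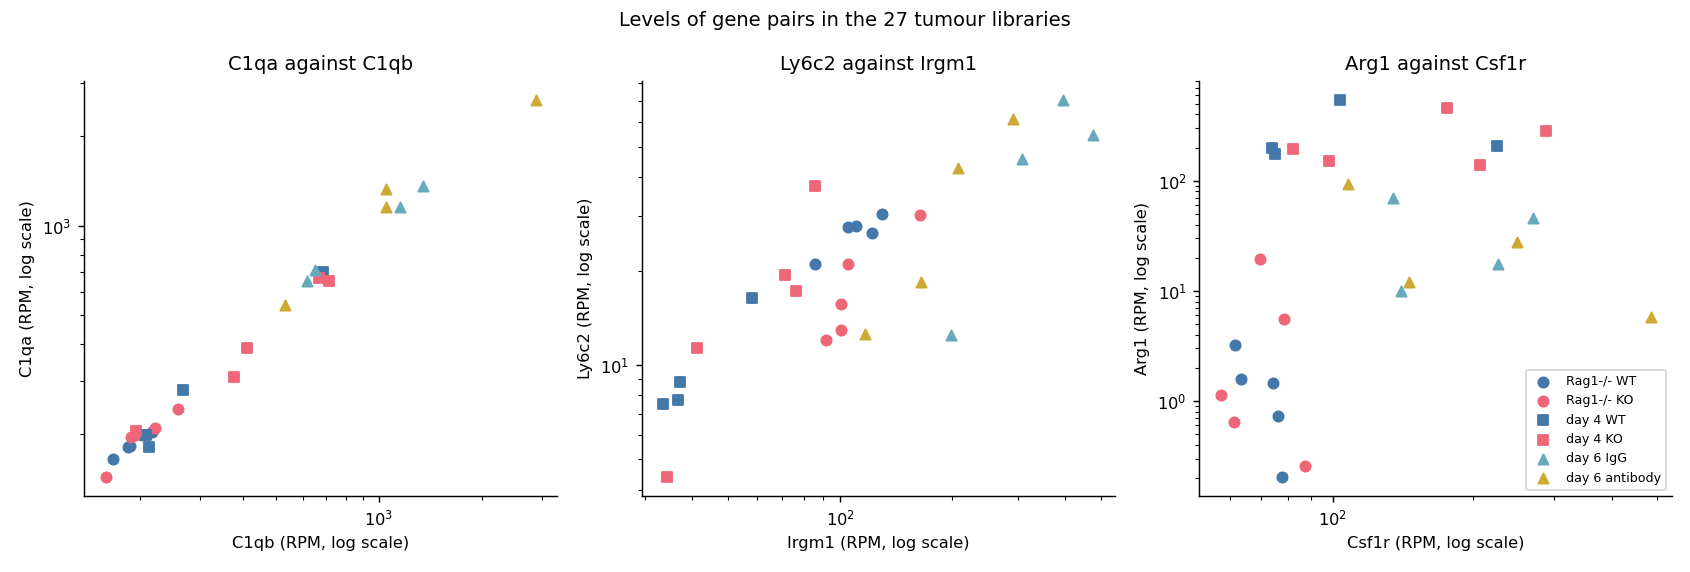
Levels of gene pairs (RPM, log axes) in the 27 tumour libraries, coloured by group and shaped by table (circles Rag1-/- hosts, squares day 4, triangles day 6). C1qa and C1qb lie close to a line, Ly6c2 is higher where Irgm1 is higher, and Arg1 separates the tables rather than following Csf1r.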

How the data were processed

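The authors deposited 4 tables of normalized read counts (signal, counts that had been divided by each library's size factor) with adjusted p-values of the authors. The submitters' processing notes name CASAVA, TopHat, DESeq2 and mm10. The counting tool, and whether it used strand, is not given in the sources used here; the kit marked strand, per the labels' protocols. Dividing each library by its step gave whole reads within 0.01 for 100.0% of values, from which RPM was made, and edgeR on these reads called 25 genes in culture, 2900 in Rag1-/- hosts, 4 at day 4 and 0 at day 6. RPKM used the joined length of all GENCODE M21 exons of a gene on GRCm38.

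Tests used limma 3.58.1 in R 4.3.3 with a trend, on log2(normalized count + 1) for genes with a mean of 10 or more, within each table, two-sided, with Benjamini-Hochberg adjustment over all genes tested. Alternatives changed the pseudocount (0.5 and 5), the filter (none, or 50 as the least mean), or the scaling (upper-quartile or quantile), or used no trend, edgeR 4.0.16, DESeq2 1.42.0, a replicate block and each library left out. The test was run on simulated counts with the same dispersion for all genes and large planted changes. This checks the code and does not show how small changes in these libraries would be found. Python 3.11.15, pandas 2.3.3 and matplotlib 3.10.9 were used.

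The 10 genes, the lists, the ratios and the motifs were chosen with earlier results of these data known. Named list genes were those called and the 2 of smallest p per list, from which the text takes examples, with the ligands of the receptors added. List genes were matched by the symbols in the tables, so genes under an older symbol were missed. Likeness was ranked over genes averaging at least 50, and examples of the first 5 were named for C1qa, Mrc1, Ly6c2, Ccr2 and Arg1. One of those for Ly6c2 is not reported here.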

Additional observations from a re-analysis of the deposited data

Results flagged for a closer look

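A library far from the others of its group was found in 7 of the 60 gene groups of 4 or 5 libraries tested with Dixon's criterion, and chance alone flags about 1 group in 20. Values are normalized counts. In day 4 WT tumours the first library stood apart for C1qb (16072, others 4977 to 6465), C1qc (11108, others 3178 to 3920), Ccr2 (2594, others 690 to 845) and Cd163 (667, others 96.1 to 194). The same library had the highest summed fibroblast markers of its group. The fourth day 4 WT library stood apart for Arg1 (12653, others 4215 to 4781), and the fourth day 4 KO library for Cd163 (1449, others 148 to 486). In Rag1-/- hosts the second KO library stood apart for Arg1 (404, others 5.40 to 114).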

How the results depend on the processing

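Mrc1 in Rag1-/- hosts was called under all 20 alternatives, with log2 changes of 0.57 to 0.75. Members called there fell from 2 to 1 without the trend, in edgeR and in DESeq2, and were 1 to 2 with a library left out, the lost gene being Ly6c2 each time. Genes called there numbered 2904, and 1984 to 3093 with a library left out. In culture 39 genes were called, 12 without the trend, 25 in edgeR, 1052 in DESeq2 and 2 to 1655 with a library left out (1655 without the first WT library, E0771-P), with 0 to 1 members. At day 4, 5 genes were called, 9 without a filter, 719 in DESeq2 and 3 to 50 with a library left out (13 without the first WT library, 11 without the third KO and 50 without the fifth KO library), and no alternative called a member. At day 6, 0 genes were called by limma (1218 at an unadjusted p under 0.05), 0 by edgeR, 161 by DESeq2 and 0 to 5 with a library left out (5 without the first antibody library), never a member. The knockout effect differed between the Rag1-/- and day 4 tables for 526 genes, and for 265 to 714 with a library left out (265 and 282 without day 4 WT libraries 2 and 4, 343 without the second day 4 KO library). The cause was not tested.

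Replicate numbers were tried as a block. Deviations of libraries of the same number correlated from -0.204 to 0.146 (Rag1-/- hosts), -0.174 to 0.144 (day 4) and -0.198 to 0.446 (day 6). With so few pairs and mixed signs, this cannot show whether the numbers pair libraries. With the replicate block 2411 genes were called in Rag1-/- hosts, with the same 2 members, 2 at day 4 and 0 at day 6. In culture no paired analysis was possible because the labels give no replicate numbers.

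Values near 0 changed sign. Csf1r in culture became 0.26 under quantile scaling. Cd68 at day 4 became 0.03 under upper-quartile and 0.06 under quantile scaling, and Cd163 at day 6 0.01 under upper-quartile scaling. Ccr2 at day 6 became 0.04 under upper-quartile and 0.03 under quantile scaling and 0.11 in both edgeR and DESeq2. With a library left out, log2 changes ran from -0.60 to 0.50 for Csf1r in culture. In Rag1-/- hosts they ran from -0.12 to 0.03 for Csf1r, -0.38 to 0.43 for Cd163, -0.04 to 0.14 for C1qa, -0.04 to 0.13 for C1qb, -0.03 to 0.15 for C1qc and -0.04 to 1.45 for Arg1. At day 4 the ranges were -0.17 to 0.17 for Cd68 and -0.48 to 0.13 for Arg1. At day 6 they were -0.23 to 0.49 for Csf1r, -0.39 to 0.02 for Cd68, -0.00 to 0.34 for Mrc1, -0.54 to 0.37 for Cd163, -0.09 to 0.72 for C1qb, -0.04 to 0.74 for C1qc, -0.42 to 0.41 for Ccr2 and -1.13 to 0.19 for Arg1. For the difference between the Rag1-/- and day 4 tables they were -0.10 to 0.24 for Cd68 and -0.47 to 0.12 for Mrc1. With 2 libraries left in culture KO at most and 4 or 5 in tumour groups, changes of the size of the standard errors above could not be detected.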
